A study of Homo sapiens with 2 samples.

Results

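Promoter hubs are described here in K562 cells, a line from a patient with chronic myelogenous leukaemia that carries the BCR-ABL1 fusion. A hub was a captured promoter fragment (bait) with 30 or more distinct partner fragments in the list of the DMSO library. Baits on chromosomes 9, 13 and 22 were left out. By this rule 202 of 16547 baits outside those chromosomes were hubs, or 1.22%, and either list named 17883 baits in all. Contacts were measured by promoter-capture Hi-C, in which crosslinked chromatin is cut with HindIII, neighbouring ends are ligated, and probes pull out ligated pairs with a promoter at an end. One group of cells received the vehicle DMSO (0 nM ponatinib) and the other ponatinib at 100 nM, a drug that blocks the ABL kinase, both for 24 h, and equal numbers of cells were harvested. There was 1 library per treatment, so no difference between the treatments has a replicate check and no test was possible. All cells were of 1 line with no other genotype named in the labels, and coordinates are those of hg38.

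The hubs were selected by their DMSO numbers, so those numbers describe the choice and support nothing. The DMSO list held 84049 pairs and the ponatinib list 91305, each with a score that is the authors' own and never below 5. Read depth is unknown, and intervals given below are 95% intervals that cover counting error only and treat partners as independent, which neighbouring fragments are not. Just inside the threshold, the 25 hubs with exactly 30 DMSO partners had 9 to 48 in ponatinib, with a median of 29. Just outside it, the 28 baits with 29 had 19 to 48, with a median of 29.5.

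A promoter in mammalian cells can lie close in space to many distal fragments, among them enhancers, other promoters and the anchors of loops held by cohesin and CTCF. Capture Hi-C lists such contacts pair by pair, and a wide domain of contact is cut by the restriction enzyme into a run of neighbouring partner fragments. BCR-ABL1 drives K562 growth through STAT5 and ERK signalling, and these cells keep erythroid features such as globin and red cell membrane gene expression. GATA1, which reads GATA motifs, is a main transcription factor of this lineage. The K562 genome is also known to be heavily rearranged.

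The name promoter hub held for most of the fragments. A transcription start in the RefSeq promoter table (GRCh38.p14) lay on 134 of 202 hub fragments, and a protein-coding one on 123. Of the other 68, 55 held an end of a gene, 7 lay inside a gene and 6 held no gene of the table. That table is not complete, so a fragment without an entry may still hold a promoter. Hubs without an entry are named below by the gene whose end they hold or in which they lie.

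The promoter sequences of 7 hubs are printed to show the range of base composition among fragments with many contacts. TEDDM1, CHML and RHAG stood among the hubs with most DMSO partners, ELAPOR2 had partners on both sides and SIK3 on a single side, and WSB1 and TNFAIP8 had the largest gain and loss in number of partners in ponatinib. Each is 300 bases from RefSeq, 250 before to 50 after the start, written in the direction of transcription. Capitals mark a match to a GATA motif (AGATAA or AGATAG, and likewise TGATAA or TGATAG) or to a STAT motif (TTCNNNGAA), on either strand.
TEDDM1, chr1:182400618-182400917, minus strand: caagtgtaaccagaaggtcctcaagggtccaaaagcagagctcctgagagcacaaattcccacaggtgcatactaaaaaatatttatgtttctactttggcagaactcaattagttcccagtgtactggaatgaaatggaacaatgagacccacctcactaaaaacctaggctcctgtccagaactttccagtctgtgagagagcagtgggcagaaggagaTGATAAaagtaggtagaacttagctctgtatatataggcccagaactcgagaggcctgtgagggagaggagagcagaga
CHML, chr1:241636145-241636444, minus strand: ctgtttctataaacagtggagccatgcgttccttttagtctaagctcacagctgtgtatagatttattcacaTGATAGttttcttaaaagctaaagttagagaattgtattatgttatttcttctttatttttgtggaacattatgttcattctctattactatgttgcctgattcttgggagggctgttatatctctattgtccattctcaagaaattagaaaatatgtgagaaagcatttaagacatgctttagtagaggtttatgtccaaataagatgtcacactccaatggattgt
RHAG, chr6:49636790-49637089, minus strand: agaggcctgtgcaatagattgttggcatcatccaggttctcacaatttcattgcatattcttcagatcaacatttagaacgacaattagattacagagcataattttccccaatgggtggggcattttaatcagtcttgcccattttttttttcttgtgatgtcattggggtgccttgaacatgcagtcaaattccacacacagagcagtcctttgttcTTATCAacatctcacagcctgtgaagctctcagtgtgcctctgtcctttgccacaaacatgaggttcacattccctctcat
ELAPOR2, chr7:87059605-87059904, minus strand: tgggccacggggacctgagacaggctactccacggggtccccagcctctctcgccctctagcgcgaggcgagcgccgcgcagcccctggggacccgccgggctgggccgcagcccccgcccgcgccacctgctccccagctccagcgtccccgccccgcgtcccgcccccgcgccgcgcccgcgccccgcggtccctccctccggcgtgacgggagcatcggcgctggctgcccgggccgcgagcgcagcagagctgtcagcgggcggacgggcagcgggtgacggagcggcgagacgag
SIK3, chr11:117098379-117098678, minus strand: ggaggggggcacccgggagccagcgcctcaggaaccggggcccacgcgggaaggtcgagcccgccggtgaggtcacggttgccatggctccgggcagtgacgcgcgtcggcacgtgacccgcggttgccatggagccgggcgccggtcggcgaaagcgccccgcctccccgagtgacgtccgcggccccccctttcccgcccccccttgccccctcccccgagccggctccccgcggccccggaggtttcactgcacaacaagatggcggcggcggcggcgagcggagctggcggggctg
WSB1, chr17:27293864-27294163, plus strand: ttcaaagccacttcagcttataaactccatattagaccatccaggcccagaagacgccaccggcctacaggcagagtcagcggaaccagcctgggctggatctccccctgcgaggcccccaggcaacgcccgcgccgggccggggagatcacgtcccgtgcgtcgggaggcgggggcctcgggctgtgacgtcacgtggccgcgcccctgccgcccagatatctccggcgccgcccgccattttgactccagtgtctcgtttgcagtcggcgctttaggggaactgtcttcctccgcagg
TNFAIP8, chr5:119268509-119268808, plus strand: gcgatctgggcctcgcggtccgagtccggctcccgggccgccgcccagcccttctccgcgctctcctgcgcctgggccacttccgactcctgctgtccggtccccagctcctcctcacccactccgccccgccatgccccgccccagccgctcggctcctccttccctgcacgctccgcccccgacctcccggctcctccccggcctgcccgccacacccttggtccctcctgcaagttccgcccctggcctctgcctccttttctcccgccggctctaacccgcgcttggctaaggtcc

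The first 3 of these promoters are poor in CpG and the last 4 are rich in it. TEDDM1, CHML and RHAG held 1 CpG each, at a GC content of 45.3%, 32.7% and 42.0%. ELAPOR2 held 45 at 80.3% GC and SIK3 held 41 at 77.3%. WSB1 held 28 CpG and TNFAIP8 29. The 3 CpG-poor promoters printed had 1 GATA match each, while that of WDR64, also poor in CpG and not printed, had 0. Over all hub promoters, 13 of 31 with a ratio of observed over expected CpG under 0.6 held a GATA match, and 16 of 144 with a higher ratio. The same split was not made for promoters on other baits, so nothing particular to hubs is read from it. None of the 7 printed had a STAT match, which says only that those letters are not in these windows.

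Over all 175 protein-coding promoters on hubs the median base composition was close to that of other baits. CpG-poor promoters made up a smaller share, a difference that was not tested. The 175 promoters lie on 123 hub fragments and some of their windows overlap, so they are not independent. The median GC content was 64.0% (61.7 to 66.3) on hubs and 64.0% over 12132 promoters on other listed baits. The median ratio of observed over expected CpG was 0.817 (0.782 to 0.839) on hubs and 0.788 (0.783 to 0.793) on the others. Promoters with a ratio under 0.6 made up 17.7% of the hub promoters and 21.99% of those on baits with 20 to 29 DMSO partners. They made up 28.5% of those on all listed baits that were not hubs, the baits with 20 to 29 included. Thus the CpG-poor promoters printed above are the minority among hubs too. A GATA match was found in 16.6% of hub promoters, 17.4% of those on other baits and 20.1% of all 22055 protein-coding promoters in the table. A STAT match was found in 5.71% of hub promoters and 6.81% of all of them.

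Hubs had from 30 to 103 DMSO partners, with a median of 36 (35 to 38). The ATXN1 promoter (chr6:16758974-16763272), whose gene encodes ataxin-1, had 103 in DMSO and 84 in ponatinib. TEDDM1, next to the glutamine synthetase gene GLUL, had 73 and 67. CHML, which encodes a Rab escort protein, had 70 and 78. Each of these had more than 60 in both lists. The hub inside CDC25A (68 and 75), most of whose partners lay on another chromosome, ELAPOR2 (65 and 50), TMEM60 with PHTF2 (63 and 58) and RAI14 (62 and 68), which encodes an actin-binding protein, followed. RHAG, which encodes a Rh-associated glycoprotein of the red cell membrane, had 61 and 57. WDR64 had 60 and 46, the hub inside CFAP68 60 and 57, and SAMSN1-AS1 57 and 50. ERAP2, an aminopeptidase that trims antigenic peptides, had 55 and 52. MYLIP, a ubiquitin ligase that acts on the LDL receptor, had 55 and 45.

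**Figure D1:**
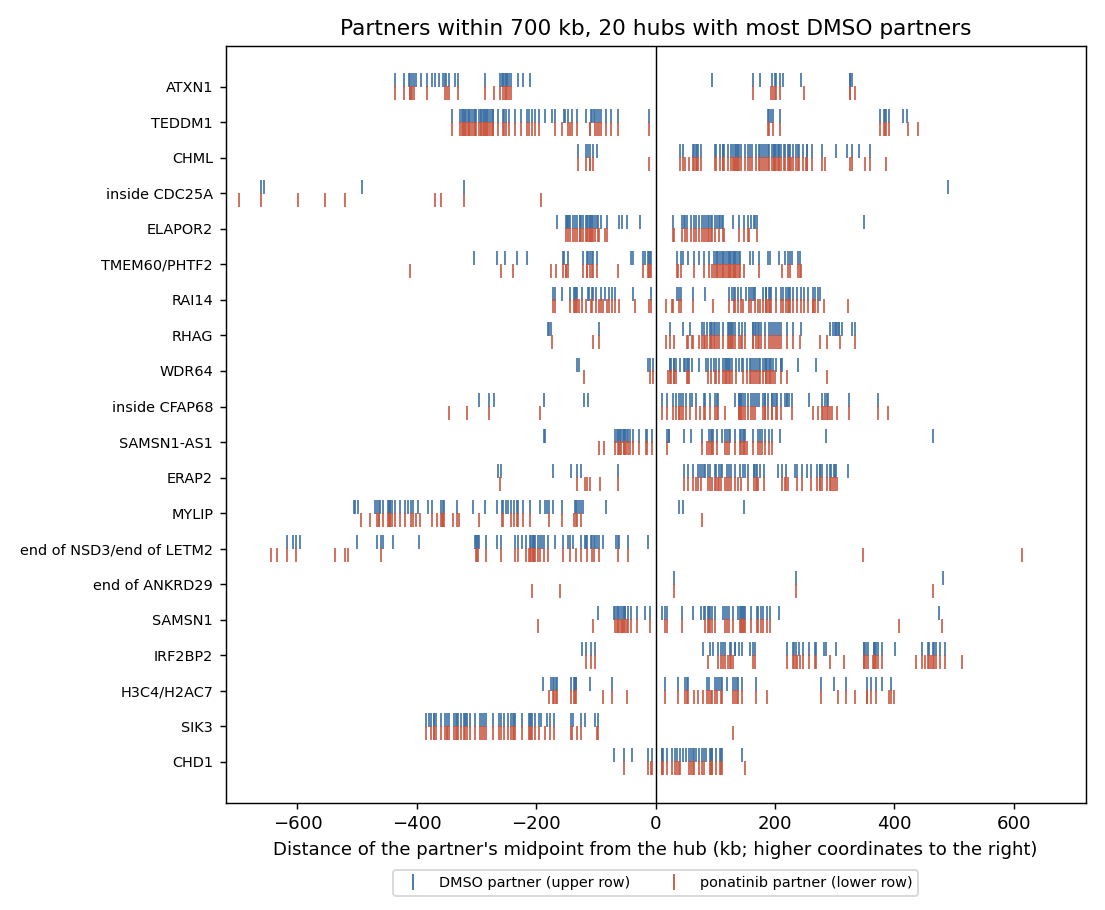
Distance in kb of each same-chromosome partner within 700 kb from the 20 hubs with most DMSO partners, with DMSO partners as upper blue ticks and ponatinib partners as lower red ticks. Runs of ticks lie at the same places in both lists, on 1 side of SIK3 apart from 1 ponatinib partner and on both sides of ELAPOR2, and the hubs inside CDC25A and at the end of ANKRD29 have few ticks because most of their partners lie farther away or on other chromosomes.

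Partners came in runs of neighbouring fragments rather than as scattered points. When partners of a hub within 5 kb of each other were merged, the median hub had 13 separate regions (12 to 13) and 2.91 partners per region. Baits with 20 to 29 DMSO partners had medians of 10 regions and 2.36 partners per region. The longest run of WDR64, a gene 14.9 kb from CHML by fragment midpoints, covered 180 kb. The longest run of CHML covered 174 kb and that of SIK3, a salt-inducible kinase, 169 kb. The number of partners therefore counts restriction fragments, and 1 hub, ATXN1, still had 30 regions once runs were merged.

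The median hub fragment was 5.78 kb long (5.27 to 6.51), against 6.37 kb (5.86 to 6.94) for the 477 baits with 20 to 29 DMSO partners. It was 6.62 kb for all baits with a DMSO pair that were not hubs, the 477 included. The median partner fragment was 3.01 kb long at hubs, 3.41 kb at baits with 20 to 29, and 4.19 kb at all baits that were not hubs. Shorter partner fragments thus went with higher numbers, and the part of fragment length in the number of partners was not tested. The density of baits did not differ in the same way. The median number of further baits within 500 kb was 10 at hubs, 11 at baits with 20 to 29 and 10 at all baits that were not hubs.

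The median hub had partners spread over 846 kb (760 to 986) from the lowest to the highest on its chromosome in DMSO, and 819 kb in ponatinib. Baits with 20 to 29 DMSO partners came near this, with a median of 782 kb (695 to 844) in DMSO. The middle of the spread was tighter: the 10th to 90th percentile of partner positions covered a median of 375 kb at hubs and 366 kb at baits with 20 to 29. The narrowest hub, NUDT6 with AFG2A, kept 32 DMSO partners within 252 kb, all at lower coordinates. In ponatinib its 41 partners were again all at lower coordinates, but the farthest of them widened the spread to 938 kb. PIGV, which adds a mannose to GPI anchors, had 36 DMSO partners within 278 kb and 30 ponatinib partners within 234 kb. SIK3 held 51 within 289 kb and 50 within 515 kb. At the wide end, 36 hubs spread over more than 2 Mb in DMSO and 34 did so in ponatinib, and 8 spread over more than 5 Mb in DMSO.

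Most hubs faced 1 way along the chromosome, as did baits with fewer partners. The larger side held a median of 84.8% (80.6 to 90) of same-chromosome partners at hubs and 88.5% (85.7 to 91.3) at baits with 20 to 29. Among hubs, 136 of 202 hubs had at least 75% of them on 1 side. All 136 had the same larger side in the ponatinib list. At least 90% lay on 1 side at 88 hubs, and 79 of these were as lopsided in ponatinib. All same-chromosome partners lay on 1 side at 37 hubs, of which 27 again had a single side in ponatinib.

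SIK3 had 51 DMSO partners at lower coordinates and none at higher ones, and in ponatinib 49 and 1. The fragment at the end of SOCS2, a feedback inhibitor of JAK and STAT signalling, had 0 below and 44 above in DMSO, and 2 and 49 in ponatinib. C4BPB, which encodes a chain of a complement regulator, had 0 and 41, and then 0 and 38. BCL2, the founding inhibitor of apoptosis of its family, had 31 and 0 in DMSO and 28 and 0 in ponatinib. In these the empty side stayed empty or nearly so.

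Only 22 hubs had under 60% on their larger side. The fragment with the promoters of INTS7 and DTL had 19 partners on each side in DMSO and 16 and 17 in ponatinib. ELAPOR2 had 32 and 33, and then 23 and 27. EPM2AIP1, which encodes a partner of laforin, had 22 and 21 in DMSO but 8 and 16 in ponatinib. At EPM2AIP1 the lower side was the larger in DMSO and the higher side in ponatinib.

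Partners lay about as often downstream as upstream of the promoter. At 94 hubs all listed promoters ran 1 way, and 45 of them had more DMSO partners downstream and 49 more upstream. Summed over these hubs, 51.7% (50.1 to 53.4) of DMSO partners and 51.6% of ponatinib partners lay downstream. The side was also set against the position of neighbouring baits. Of the 136 hubs with at least 75% on 1 side, 73 had more baits within 500 kb on that side, 55 had fewer and 8 had equal numbers, with a median of 5 on each side.

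Few hub partners were themselves baits. Baits made up 15.6% (14.8 to 16.4) of DMSO hub partners and 22.6% (21.9 to 23.4) of the partners of baits with 20 to 29. The share was 35.2% (34.9 to 35.5) for all baits that were not hubs, those with 20 to 29 included. MYLIP and IRF2BP2, a transcriptional corepressor, had 0 bait partners among 55 and 52. At the other end UCN had 22 baits among 32 partners (68.8%), and H2BC12, in the large histone cluster of chromosome 6, 22 among 39 (56.4%). The hubs at the end of SMARCC2 (65.6%) and at TUT1 (62.5%) also had mostly other baits as partners. Many baits nearby did not always go with this. RPS26, with 41 other baits within 500 kb, had 48.9% bait partners, and the end of SP7, with 28, had 28.9%.

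Hubs also contacted each other and shared partners. The DMSO list held 49 pairs of 2 hubs and the ponatinib list 52, with 45 in both. The pair with the highest DMSO score joined the end of SP7 to TARBP2, 179 kb apart, with scores of 36.0 and 54.0. In the histone cluster, the fragment with H3C4 and H2AC7 was joined to H2BC12 over 949 kb, with scores of 23.3 and 20.3. CHML and WDR64 had 48 DMSO partners in common, which were 68.6% of those of CHML and 80.0% of those of WDR64. TEDDM1 and GLUL had 34 in common, 46.6% of the first and 89.5% of the second. These neighbours sit 14.9 and 10.96 kb apart and are not independent members. Within 1 Mb of each other the 202 hubs formed 143 loci, of which 44 held several hubs.

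Hubs were unevenly spread over chromosomes. Chromosome 6 had 32, or 3.44% (2.37 to 4.83) of its baits, and chromosome 1 had 33, or 1.62% (1.12 to 2.27). Chromosomes 16 and 19 had 0. The fullest locus, formed by joining hubs within 1 Mb, was that of the histone cluster of chromosome 6, with 9 hubs over 1979 kb. Not all of these hold histone genes, since ABT1, ZNF184, ZKSCAN8 and a fragment with ends of tRNA genes are among them. The summed partners of the 9 hubs numbered 348 in DMSO and 327 in ponatinib.

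**Figure D2:**
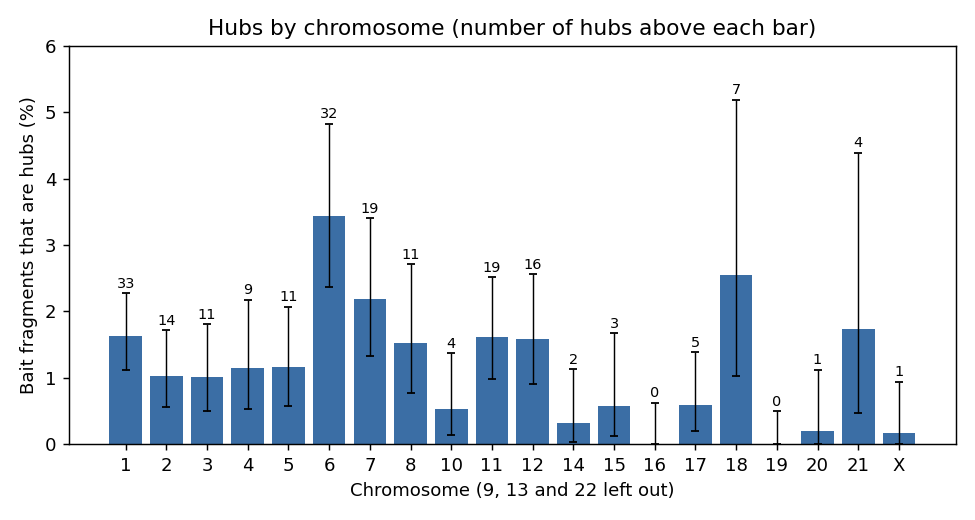
Share of bait fragments that are hubs on each chromosome, in percent, with exact binomial 95% intervals as error bars and the number of hubs above each bar. Chromosome 6 stands highest at 3.44% with 32 hubs, and chromosomes 16 and 19 have 0.

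Over all hubs the number of partners was close in the lists. Summed over the 202 hubs DMSO had 7816 and ponatinib 7787, so that ponatinib over DMSO was 0.996 (0.965 to 1.03). Over baits that were not hubs it was 1.09 (1.08 to 1.10), and over those with 20 to 29 partners 1.02 (0.994 to 1.05). The direction depends on the list used for the choice: baits with 30 or more partners in ponatinib gave a ratio of 1.18 and baits with 60 or more over both lists 1.08. In ponatinib 285 baits had 30 or more, and 156 of them were hubs, which is 77.2% of the hubs and 54.7% of the 285. The median hub had 36.5 partners in ponatinib (34 to 39), within a range of 9 to 84. More partners were listed in ponatinib at 82 hubs, fewer at 106 and the same number at 14.

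**Figure D3:**
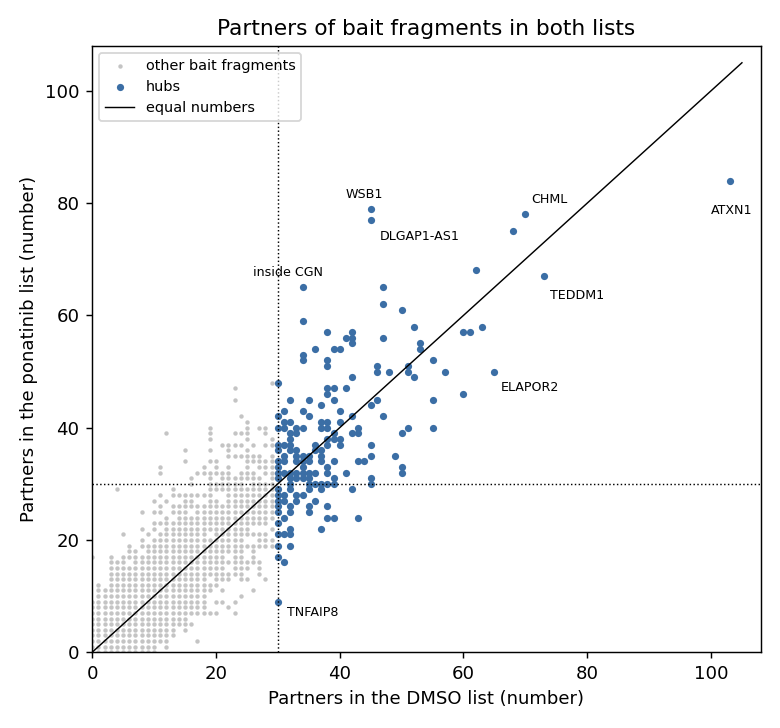
Number of partners in the DMSO list (horizontal) against the ponatinib list (vertical) for hubs (blue) and all other baits outside chromosomes 9, 13 and 22 (grey), with a line of equal numbers and dotted lines at the threshold of 30. Hubs lie on both sides of the line, with WSB1, DLGAP1-AS1 and the hub inside CGN farthest above it and TNFAIP8 farthest below.

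At 1.5-fold, with 1 added to each number, 7 hubs had more partners in ponatinib and 12 had fewer. Of 10594 baits with 5 or more pairs over both lists, 23.3% passed that fold upwards and 15.9% downwards. Of the 213 baits with 60 or more pairs over both lists, 8.92% passed upwards and 2.35% downwards. Most of these 213 are hubs themselves, so they are not a separate group. At 2-fold no hub had more and 1 had fewer, against 10.5% and 7.12% of baits with 5 or more pairs. Baits with few pairs pass a fold by a change of few partners, so these shares are not a like comparison for hubs. The share at 2-fold was not counted for the 213 baits. When partners within 5 kb were merged, 0 of the 7 gains and 3 of the 12 losses were still past 1.5-fold, and with scores of at least 7 it was 6 and 5. Since hubs were chosen by high DMSO numbers, losses are favoured by the choice, and nothing is read from the balance of gains and losses.

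**Figure D4:**
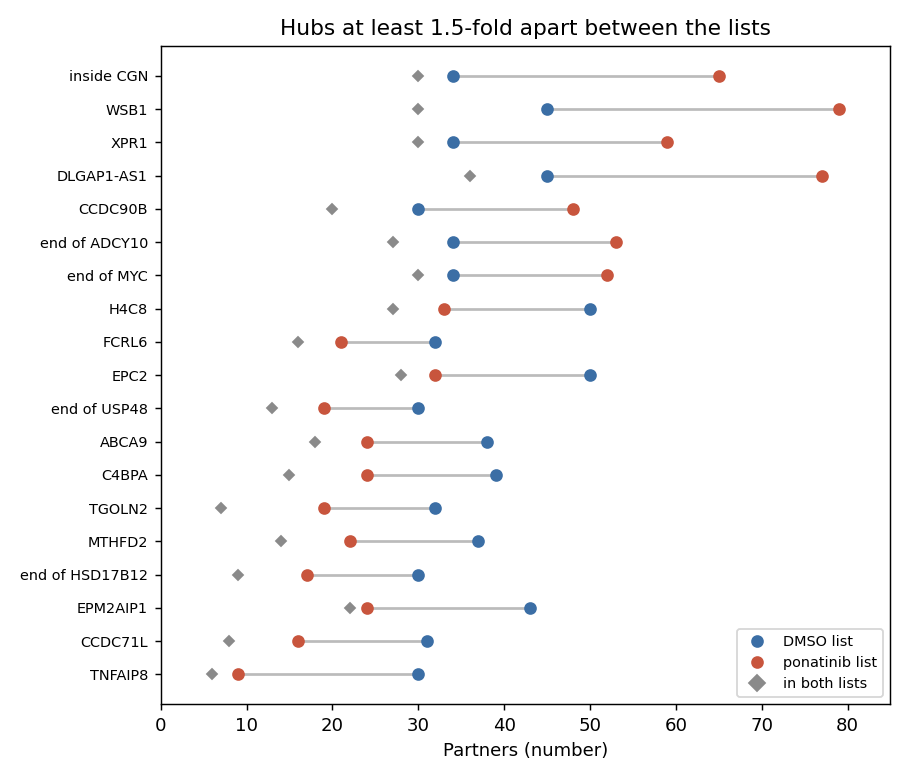
Number of partners in the DMSO list (blue), in the ponatinib list (red) and in both (grey diamond) for the 19 hubs at least 1.5-fold apart. The 7 hubs at the top have more in ponatinib and the 12 below fewer, and EPM2AIP1 kept 22 of its 24 ponatinib partners in both lists while TNFAIP8 has 6 in both.

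Among the gains, WSB1, which encodes a substrate adaptor of a ubiquitin ligase, went from 45 DMSO partners to 79 in ponatinib, with 30 in both. Of the 2 lists together 63.7% (54.6 to 72.2) of its partners were in ponatinib. DLGAP1-AS1, an antisense transcript, went from 45 to 77 with 36 in both, a share of 63.1% (53.9 to 71.7). The hub inside CGN, the gene of the tight junction protein cingulin, went from 34 to 65, with 30 in both. XPR1, a phosphate exporter, went from 34 to 59, also with 30 in both. These were the 4 of 202 hubs whose interval lay above 50%, in numbers that also chose the hubs, so the intervals are a description. How many other baits have such an interval was not counted, so nothing is read from the number 4. Most DMSO partners of these 4 hubs were listed again while further ones were added.

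At 6 of the 7 hubs with gains past the fold, the side that was already the larger added more partners in number. At CCDC90B both sides gained equally, from 27 to 36 and from 3 to 12. A side with more partners adds more where both grow alike, so this count does not show that gains favoured the larger side. As a multiple of its DMSO number, the smaller side grew more at DLGAP1-AS1, CCDC90B, inside CGN and at the ends of ADCY10 and MYC. The larger side did so at WSB1 and XPR1. WSB1 had 34 partners at higher coordinates in DMSO and 62 in ponatinib, against 11 and 16 at lower ones. DLGAP1-AS1 had 40 and 68 at lower coordinates, against 4 and 9. The hub inside CGN had 30 and 55 at higher coordinates, against 3 and 9. The fragment at the ends of HOXB3 and HOXB5, which encode homeobox factors, was under 1.5-fold and had all its partners on the lower side, 38 in DMSO and 57 in ponatinib.

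Among the losses, TNFAIP8, which encodes a regulator of cell death induced by TNF, went from 30 DMSO partners to 9, with 6 in both. Its share in ponatinib was 23.1% (11.1 to 39.3), and its number was 6 and 4 with scores of at least 7 and 2 and 2 with scores of at least 10. A single DMSO partner farther than 1 Mb, at 21016 kb, set its wide DMSO spread of 21312 kb, since the 10th to 90th percentile covered 374 kb. EPM2AIP1 went from 43 to 24 with 22 in both, so that nearly all its ponatinib partners were already listed in DMSO. CCDC71L went from 31 to 16 with 8 in both. These were the 3 of 202 hubs whose interval lay below 50%, a description for the same reason and likewise without a count for other baits. EPC2, a subunit of the NuA4 acetyltransferase complex, went from 50 to 32 and H4C8, a histone gene, from 50 to 33. These are losses by number in lists with a score threshold, and at EPC2 the partners listed in DMSO only had a median score of 6.18.

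Of 7816 DMSO hub partners, 5075 were the identical fragment in ponatinib, or 64.9% (63.9 to 66.0). The share was 60.5% (59.6 to 61.4) for baits with 20 to 29. It was 43.7% (43.4 to 44.0) for all baits that were not hubs, those with 20 to 29 included. It rose with the score: 38.6% of hub partners scored 5 to 6 were found again, 69.1% of those scored 7 to 10 and 95.9% of those scored 20 or more. In the lowest class hubs stood at 38.6% and other baits at 25.6%, and in the highest class at 95.9% and 96.0%. Of the 2741 partners listed in DMSO only, 61.6% lay within 5 kb of a ponatinib partner of the same hub, and 43.4% directly next to one. Most partners listed in DMSO only thus lay close to a fragment that the ponatinib list did hold. CHML had the highest share found again, 64 of 70 (91.4%), and TNFAIP8 the lowest, 6 of 30 (20.0%).

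**Figure D5:**
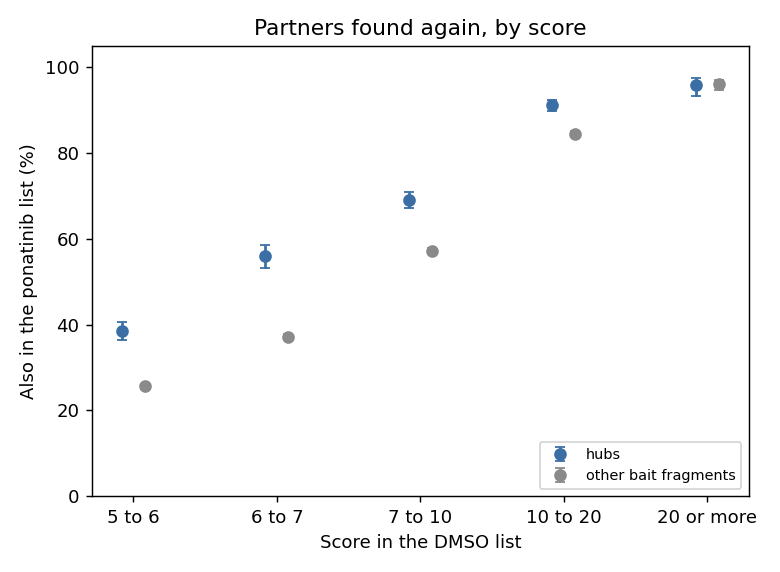
Share of DMSO partners also in the ponatinib list, in percent, by DMSO score class, for hubs (blue) and other baits (grey), with exact binomial 95% intervals. Hubs rise from 38.6% to 95.9% and other baits from 25.6% to 96.0%.

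By distance, hub partners under 50 kb numbered 530 in DMSO and 475 in ponatinib, and ponatinib over DMSO was 0.896 (0.790 to 1.02). From 100 to 250 kb, where most lay, there were 2899 and 2815, or 0.971 (0.922 to 1.02). From 500 kb to 1 Mb there were 609 and 703, or 1.15 (1.03 to 1.29), and from 1 to 2 Mb 79 and 118, or 1.49 (1.11 to 2.01). The ratio thus grew with distance up to 2 Mb at hubs, and from 2 to 5 Mb it was 1.21 (0.982 to 1.48). Other baits gave 1.02, 1.09, 1.14 and 1.20 in the first 4 classes named and 1.33 from 2 to 5 Mb. The difference between hubs and other baits was not tested.

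A few hubs had blocks of partners far away on the same chromosome. At ATXN1, 17 DMSO partners and 15 ponatinib partners, 9 of them in both, lay 34.6 Mb away, most in PKHD1. At the end of ANKRD29, 36 in each list, with 16 in both, lay 15.3 Mb away, most in PTPRM. MYL12B, a myosin regulatory light chain, had 18 and 19 about 7.16 Mb away, with 8 in both, most in PIEZO2, a mechanosensitive channel. Each block was found in both lists, with part of its fragments the same. THAP5 with DNAJB9 had 25 and 32 partners 3.15 Mb away, most in IMMP2L, with 8 in both. DLGAP1-AS1 and COLEC12 are a pair seen from both ends: DLGAP1-AS1 had 27 DMSO and 42 ponatinib partners 2.82 Mb away in the stretch with COLEC12 and CLUL1. COLEC12 had 27 and 31 partners 3.07 Mb away, most in DLGAP1. The far block thus held part of the larger ponatinib number of DLGAP1-AS1.

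Partners on another chromosome were rare and concentrated. They made up 2.42% of DMSO hub partners and 2.26% of ponatinib ones, against 3.67% of DMSO partners of other baits, and 148 hubs had none. Of the 189 in DMSO, 130 belonged to 4 hubs. The hub inside CDC25A, the gene of a cell cycle phosphatase, had 62 partners on other chromosomes in DMSO and 65 in ponatinib. Of these, 61 and 65 lay on chromosome 10, most of them in GRID1, with 41 in both lists and scores up to 441 and 514. ATXN1 had 42 and 38 on chromosome 16, most in GSE1, with 27 in both. The end of ANKRD29 had 14 and 11 on other chromosomes, mainly at DNAH5 on chromosome 5. SAMSN1 and SAMSN1-AS1 each had 3 partners on an alternate contig of chromosome 21 in both lists, an alternate copy in the build. Such contigs took 10 of the 189 partners counted on other chromosomes in DMSO and 12 of 176 in ponatinib.

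Genes of 15 lists were looked up on hubs, and 1.52% of 12997 protein-coding genes with a start or end on a listed bait had one on a hub. Of the STAT5 pathway and BCR-ABL1 target genes, 4 of 15 did: MYC, PIM1, SOCS2 and GAB2. The fragment that holds both ends of MYC went from 34 DMSO partners to 52, with 30 in both, and 32 and then 46 of them lay at higher coordinates. With partners within 5 kb merged it had 16 regions in each list. PIM1, a kinase induced by STAT5, had 30 and 26. GAB2, an adaptor that signals from BCR-ABL1, had 39 and 39, and the end of SOCS2 46 and 51. Within this list the ponatinib number of fragments was thus higher at MYC and at the end of SOCS2, lower at PIM1 and equal at GAB2. The number of merged regions was not higher at MYC, and at the end of SOCS2 it was 16 in DMSO and 14 in ponatinib.

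Histone genes were on hubs in 10 of 57 cases, on 6 fragments. H3C4 with H2AC7 had 52 DMSO and 58 ponatinib partners, H2BC12 39 and 47, H2BC6 44 and 34, H2BC17 31 and 28, and H2AC20 with H2AC21 32 and 22. Several genes share a fragment here and the fragments share partners, so the count of genes is not a count of independent hubs. Of the erythroid genes, RHAG was on a hub by its promoter (61 and 57). Among chromatin enzymes 3 of 34 were on hubs: CHD1, a remodeller (51 and 51), the end of NSD3, a histone methyltransferase (55 and 40), and EPC2. Ribosomal protein genes had 1 of 58, RPS26 (45 and 30), lipid synthesis 1 of 12, HMGCS1 (30 and 42), and the BCL2 family 1 of 14, BCL2 (31 and 28). No gene with a start or end on a hub came from the lists of ERK pathway, stem and progenitor, megakaryocyte, cell cycle, CTCF and cohesin, glycolysis, lymphoid, or liver and neuron genes. These lists had 7 to 28 genes each on a listed bait. Fragments that lie inside a gene, such as the hubs inside CDC25A and MYB, were not counted for that gene. Apart from the histones, each list had 0 to 4 genes on hubs, too few to set against 1.52%.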

How the data were processed

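The authors deposited 1 list per library, whose lines name a bait, its partner and a score. The deposited score was used unchanged, within each list, to describe and filter pairs. The submitters' processing notes name hg38 as the build. For the caller and the meaning and threshold of the score, the sources used here give nothing, and read depth is unknown. A pair was taken without order, so the 91306 ponatinib lines gave 91305 pairs. Distances are between fragment midpoints. Partners within 5 kb were merged for regions. Genes came from RefSeq tables of GRCh38.p14. Fold calls used (ponatinib + 1)/(DMSO + 1). Share intervals are exact binomial (Clopper-Pearson) and median intervals come from order statistics.

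The members and gene lists were chosen with earlier results of these data known. Hubs were named by rank in number, gain, loss, span, side, bait share and other-chromosome share, by gene list, by mutual contact, or at 29 and 30 partners. Not every hub or list count is reported here. C4BPB, GLUL, ABCA9, FCRL6, MTHFD2, TGOLN2, CCDC71L and C4BPA fall outside that rule and were chosen after their values were seen. Python 3.11.15, numpy 2.4.6, scipy 1.17.1 and matplotlib 3.10.9 were used, and the counting was tested on simulated lists.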

Additional observations from a re-analysis of the deposited data

How the results depend on the processing

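No paired analysis was possible because each treatment has 1 library. Of the alternatives, 2 were chosen after seeing the data: 1 hub per locus of 1 Mb, and leaving out hubs with 10 or more partners on another chromosome.

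Each setting that chooses hubs by another number also chooses other fragments. With scores of at least 7 there were 25 hubs, a ratio of 0.934, 0 gains and 1 loss, a median span of 443 kb, 93.9% on the larger side, 9.07% bait partners and 12.8% on other chromosomes. With scores of at least 10 there were 4 hubs, 0.906, 0 and 0, 469 kb, 91.7%, 5.29% and 49.4%. With merged regions 1 hub was left, with 0.833, 0 and 0, 60% found again, 35493 kb, 68.4%, 3.33% and 36.7%. A minimum of 25 gave 380 hubs, 12 gains, 25 losses, 63.6% found again, 17.4% bait partners and 1.92% on other chromosomes. A minimum of 40 gave 61 hubs, 2 gains, 3 losses, 66.9%, 1196 kb, 11.97% and 4.64%. Hubs chosen in ponatinib gave a ratio of 1.18, 56 gains, 2 losses, 69.6% found again and 17.2% bait partners. Hubs chosen over both lists gave 1.08, 19 gains, 5 losses and 67.8%.

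Dividing ponatinib numbers by the ratio of list lengths gave a ratio of 0.917, 4 gains and 21 losses, and lists of equal length gave 0.946 and 20 losses. Matching partners within 5 kb gave 86.5% found again, a fold of 2 gave 0 gains and 1 loss, and the 10th to 90th percentile gave a span of 375 kb. With no chromosome left out 24.9% of partners were on another chromosome. One hub per locus gave 14.1% bait partners and 2.99% on other chromosomes, and without the 4 hubs with most such partners the latter was 0.780%. Of the 7 gains and 12 losses at single hubs, 0 and 3 stayed past 1.5-fold with merged regions, 6 and 5 with scores of at least 7, and 4 and 5 with scores of at least 10. Single hubs changed direction in 4 cases: the log2 ratio was -0.42 at the end of ADCY10 and 1.32 at TGOLN2 with scores of at least 10, and at ABCA9 0.15 with scores of at least 7 and 0.58 with at least 10. Except where a setting leaves fewer pairs or another set of hubs, the cause was not tested.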
